A study of Mus musculus with 6 samples.

Results

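The hair keratins and the keratin-associated proteins, which build the hair shaft and its inner root sheath, were examined in embryonic mouse back skin at E15.5. A probe set, the group of short probes that reads 1 transcript on the Affymetrix MOE430 2.0 array, was included when its single gene symbol in the platform annotation began with Krtap or was Krt25 to Krt28, Krt31 to Krt36, Krt71 to Krt75 or Krt81 to Krt86. This gave 63 of 45037 probe sets, for 58 of 18193 genes, namely 20 keratins and 38 Krtap genes of 22 families, and 5 of the Krtap genes had 2 probe sets each. RefSeq (GRCm38.p6) lists 77 genes under the same names, and the 19 without a single-gene probe set, Krt74 among them, were not analysed here. The series compared 3 arrays of Fzd6+/- embryos (control) with 3 of Fzd6-/- embryos (knockout), all of a mixed C57BL6/129 strain. The controls thus also carried 1 mutant Fzd6 copy, and both groups were whole back skin, in which fewer cells of a type and less RNA per cell cannot be told apart. The labels call the arrays biological replicates without saying whether each came from 1 embryo. A p-value here thus sets a group difference against the spread between these samples, and not between known single embryos.

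Hair keratins are cysteine-rich intermediate filament proteins that pair a type I with a type II partner in the cortex and cuticle of the shaft. Keratin-associated proteins fill the matrix between these filaments and cross-link them through cysteine, and they fall into high sulfur, ultrahigh sulfur and high glycine-tyrosine families. The inner root sheath, which moulds the growing shaft, has its own keratins (Krt25 to Krt28 and Krt71 to Krt74), and Krt75 belongs to the companion layer beside it. In mouse back skin at this stage follicles are still placodes, germs and short pegs, and shafts form later, near birth. Fzd6 encodes a Frizzled receptor of planar cell polarity, the system that orients hair follicles along the body axis.

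The member genes lay in clusters, as RefSeq places them: all 11 type I keratins and 10 Krtap genes on chromosome 11, all 9 type II keratins on chromosome 15, which also carries Fzd6, and 20 Krtap genes on chromosome 16. The other 8 lay on chromosomes 1, 7 and 10. The member with the largest spread between arrays was Krtap13, in the chromosome 16 cluster. The 250 bases before the RefSeq start of 5 genes are shown because the results below turn on the contrast between them. They are Krtap13, its next gene 2310034C09Rik, which the name rule left out and which was chosen after its values were seen, the flat neighbours Krtap13-1 and Krtap14, and Krt32 of the shaft cuticle. Each is written 5′ to 3′ in the direction of its gene. Capitals mark TATAAA, the letters of a TATA box, at any distance from the start. They also mark CTTTGAA, a form of the Lef/Tcf site known from hair keratin promoters. Other forms of a TATA box were not searched, so a window without TATAAA, as in Krtap14, may still hold such a box.
Krtap13 (GRCm38.p6, chr16:88751629-88751878, minus strand): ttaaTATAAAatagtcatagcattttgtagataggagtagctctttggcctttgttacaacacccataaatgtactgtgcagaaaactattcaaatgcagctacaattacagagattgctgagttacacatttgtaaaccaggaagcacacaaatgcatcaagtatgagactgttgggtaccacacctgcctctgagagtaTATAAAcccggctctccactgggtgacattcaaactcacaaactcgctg
2310034C09Rik (GRCm38.p6, chr16:88758597-88758846, plus strand): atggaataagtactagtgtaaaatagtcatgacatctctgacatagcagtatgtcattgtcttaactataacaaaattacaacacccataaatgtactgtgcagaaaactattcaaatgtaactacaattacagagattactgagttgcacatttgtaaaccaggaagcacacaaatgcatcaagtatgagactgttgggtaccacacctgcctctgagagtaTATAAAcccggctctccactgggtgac
Krtap13-1 (GRCm38.p6, chr16:88728612-88728861, plus strand): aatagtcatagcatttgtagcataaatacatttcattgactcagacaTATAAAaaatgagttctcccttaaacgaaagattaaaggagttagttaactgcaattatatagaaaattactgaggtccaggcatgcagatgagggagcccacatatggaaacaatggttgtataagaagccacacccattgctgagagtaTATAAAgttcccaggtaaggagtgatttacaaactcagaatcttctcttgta
Krtap14 (GRCm38.p6, chr16:88826146-88826395, minus strand): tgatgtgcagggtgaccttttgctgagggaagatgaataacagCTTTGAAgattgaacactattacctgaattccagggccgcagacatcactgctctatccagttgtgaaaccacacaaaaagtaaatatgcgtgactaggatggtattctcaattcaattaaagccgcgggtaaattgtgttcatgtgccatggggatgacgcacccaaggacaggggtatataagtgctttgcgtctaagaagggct
Krt32 (GRCm38.p6, chr11:100088270-100088519, minus strand): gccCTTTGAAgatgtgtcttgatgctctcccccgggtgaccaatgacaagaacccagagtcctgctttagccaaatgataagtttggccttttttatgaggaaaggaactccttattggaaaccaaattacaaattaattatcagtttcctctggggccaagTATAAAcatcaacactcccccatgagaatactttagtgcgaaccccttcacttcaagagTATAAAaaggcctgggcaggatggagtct

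Krtap13 and 2310034C09Rik shared much of their upstream sequence. Shifted by 22 bases, they were identical at 185 of 228 aligned bases (81.1%). The longest identical run, of 102 bases, held the TATAAA nearest each start. Krtap13 and its other neighbour Krtap13-1 shared a longest run of 16 bases, against 8 with Krtap14 and 10 with Krt32. These comparisons allowed no gaps, so likeness broken by gaps may have been missed. Among 32851 promoter windows of the RefSeq table, that of 2310034C09Rik was the only other one with a run of 30 or more bases from Krtap13. Windows were compared only in the direction of each gene, so shared runs in the opposite direction were not sought. Upstream windows were found for 51 of the 58 member genes, and both strands were searched for the motifs. TATAAA stood in 40 of the 51 (78.4%) against 12.4% of all windows, and CTTTGAA in 10 (19.6%) against 4.46%. CTTTGT, another Lef/Tcf form, stood in 16 (31.4%) against 16.5%, and ACGC, the core bound by the hair regulator Foxn1, in 12 (23.5%) against 49.8%. No motif contains another. CTTTGAA began 247 bases before the start in Krt32 and 207 in Krtap14. It was not in the windows of Krtap13, 2310034C09Rik or Krtap13-1. A match here is a description of letters, not of a bound site.

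Levels are RMA values on the log2 scale, and array medians lay between 5.99 and 6.03, with 3 arrays per group limiting the precision. Brightness depends on the probes as well as on the transcript, so the array median served as a mark and not as a detection call. The targeted gene checked the labels: of 3 Fzd6 probe sets, the brightest read 9.50, 9.51 and 9.11 in controls 1 to 3 and 9.07, 9.01 and 8.71 in knockouts 1 to 3. Its difference (knockout minus control, as throughout) was -0.44 (95% confidence interval -0.78 to -0.11). A dimmer Fzd6 probe set read 6.22, 6.09 and 6.09 in the controls and 5.49, 5.53 and 5.36 in the knockouts (-0.67, limma adjusted p = 0.864). In both, every knockout lay below every control, while the third probe set differed by -0.0097. Where these probes lie on the mutant gene was not known here. Skin cell types were seen in the markers: all 6 basal and all 6 suprabasal epidermal markers, all 6 fibroblast markers and 5 of 6 hair placode markers lay above the median in all 6 arrays. The same held for all 5 muscle, 5 endothelial, 4 melanocyte and 4 macrophage markers, so passing this mark did not single out skin. Of 9 sheath and shaft markers outside the members, 7 were measured. Gata3 and Msx2 lay above the median in all 6 arrays, and Tchh (trichohyalin of the inner root sheath), Hoxc13 and Padi3 lay below it in all 6.

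Most hair keratin and Krtap probe sets were dim at E15.5. Only 9 of 63 (14.3%), for 8 genes, lay above the array median in all 6 arrays, against 46.5% of all probe sets and 53% of single-gene ones, and 48 lay below it in all 6. The mean levels of the members ran from 2.83 to 7.42 with a median of 4.34, against 6.02 over all probe sets. The 43 Krtap probe sets had a median of 4.03 and the 20 hair keratins one of 5.55. No member lay above the 75th percentile in all 6 arrays.

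**Figure D1:**
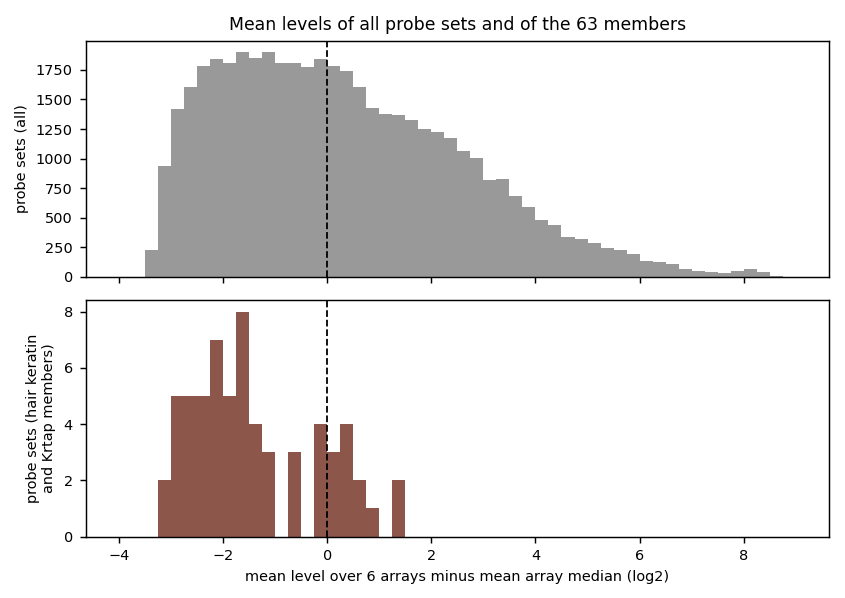
Mean level of each probe set over the 6 arrays, minus the mean array median (log2, bins of 0.25), for all 45037 probe sets above and the 63 members below; the dashed line is the array median. Of the members, 51 have a mean at or below the median of all means, and the brightest lies 1.41 above the mark.

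Among the type I hair keratins, which form acidic partners in cortex and cuticle, Krt36 and Krt33b lay above the mark in all 6 arrays. Krt36 read 6.97, 6.63 and 6.85 in the controls and 6.71, 6.95 and 6.89 in the knockouts, a mean of 0.82 above the mark with overlapping groups. Krt33b read 6.09, 6.03 and 6.08 in the controls and 6.39, 6.23 and 6.27 in the knockouts, so every knockout array lay above every control. Krt32 was above the mark in 4 arrays and Krt31 in 5. Krt34, Krt33a and Krt35, an early keratin of the shaft matrix and cuticle, lay below it in all 6, with means of 3.77 to 4.94.

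Among the type II hair keratins, the basic partners, Krt81 and Krt83 of the cortex lay above the mark in all 6 arrays. Krt81 hardly varied, at 7.31, 7.28 and 7.34 in the controls and 7.19, 7.34 and 7.31 in the knockouts. Krt83 read 6.80, 6.37 and 6.56 in the controls and 6.87, 6.73 and 6.78 in the knockouts, with control 1 among the knockout values. Krt84 passed the mark in 1 array, and Krt82 and Krt86 in none.

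No inner root sheath keratin lay above the mark in all 6 arrays. The type I sheath keratins Krt25 to Krt28 lay below it throughout, with means from 3.51 to 4.82. Of the type II sheath keratins, Krt71 passed it in knockout 1 alone (6.07), and Krt72 and Krt73 in no array. Krt75 of the companion layer also passed it in knockout 1 alone, at 6.02.

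Of the Krtap genes, Krtap12-1, Krtap5-1, Krtap3-1 and Krtap10-4 lay above the mark in all 6 arrays. The brightest member of all was Krtap12-1, at 7.42, 7.36 and 7.45 in the controls and 7.48, 7.35 and 7.46 in the knockouts, a range of 0.13 over the 6 arrays. Its other probe set, whose name marks it as able to read related transcripts, had a mean 1.28 below the mark. The 2 probe sets of Krtap5-1, an ultrahigh sulfur protein, lay 0.59 and 0.35 above the mark, while the other 4 Krtap5 genes lay below it in all 6 arrays. Krtap3-1, a high sulfur protein, lay 0.43 above it and Krtap10-4 0.31. None of the 15 probe sets of the high glycine-tyrosine families (Krtap6, 7, 8, 19, 21 and 22) passed the mark in any array, with means of 3.06 to 4.70. Krtap genes of one family can be nearly identical, so a probe set may also read a relative of the gene it is named for.

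The members nearest the mark on the bright side were Krt31, Krt32 and Krt33b, at 0.063, 0.12 and 0.17 above it, and those nearest on the dim side were Krt84, Krt71 and Krt72, at 0.057, 0.15 and 0.16 below. The count above the mark changed with its place. It was 16 at the 40th percentile, 2 at the 60th, where 36.7% of all probe sets remained, and 3 at the median of single-gene probe sets alone.

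**Figure D2:**
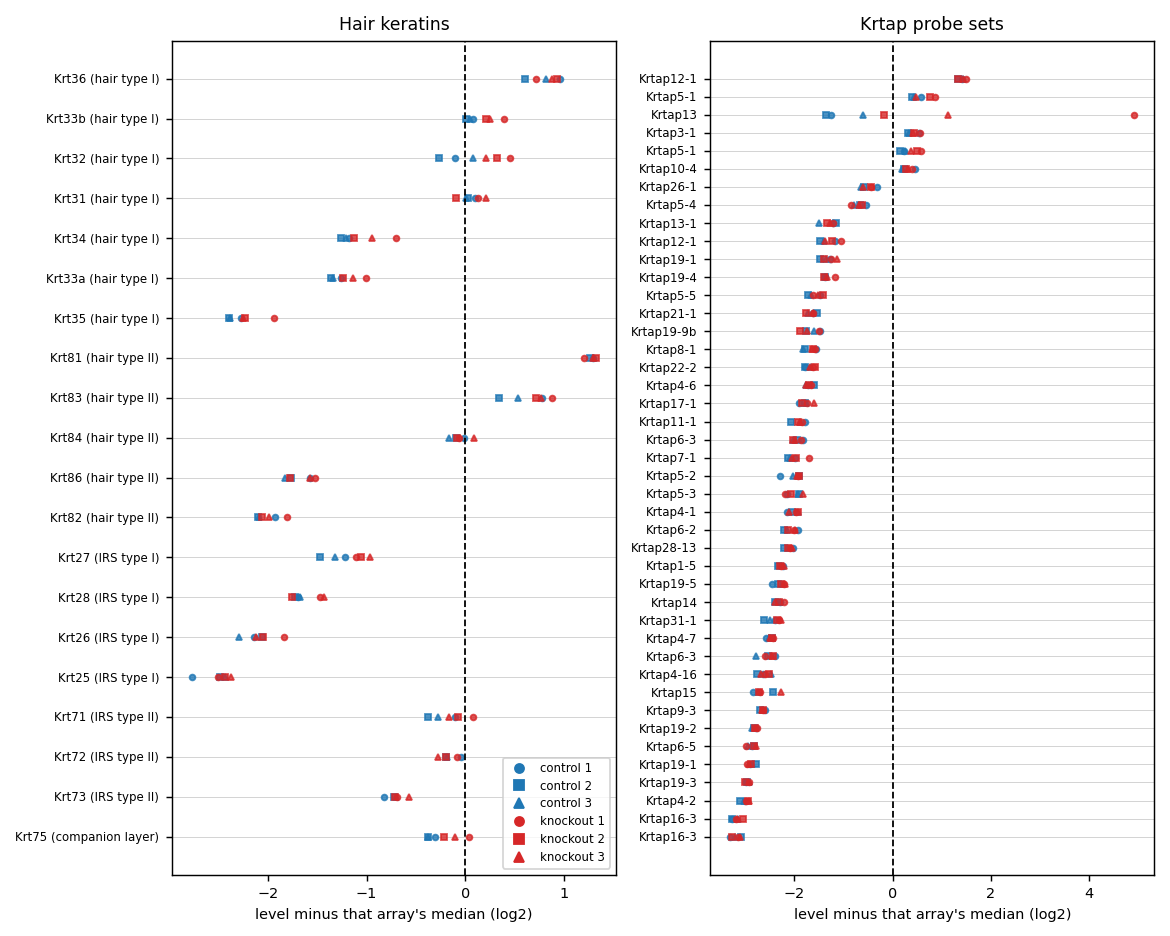
Level of each member probe set in each array minus that array's median (log2), hair keratins grouped by role at left (IRS, inner root sheath) and Krtap probe sets by level at right; colours give genotype and symbols the replicate number. Krtap13 spreads over 6.25 log2 units while the other 62 probe sets each stay within 1, and dashed lines mark the array median.

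The spread between arrays was small for all members but 1. The median range over the 6 arrays was 0.28 on the log2 scale, against 0.35 over all probe sets. A range of 1 or more was found in 1 of 63 members, Krtap13, against 3.84% of all probe sets. Spread goes with level on this array: of probe sets at or below the median mean, where 51 of the members lie, 1.35% had such a range, and their median range was 0.31. Krtap13, a high sulfur protein by its family, read 4.75, 4.66 and 5.43 in controls 1 to 3 and 10.9, 5.85 and 7.14 in knockouts 1 to 3. It was thus below the median in the controls and in knockout 2, above it in knockout 3, and far above it in knockout 1. Its range of 6.25 was the 6th largest of all 45037 probe sets.

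The question of the genotype comparison was whether these genes differed when Fzd6 was absent. For Krtap13 the group means were 4.95 ± 0.42 and 7.97 ± 2.63 (SD, n = 3), which puts the knockout 3.02 above (95% confidence interval 0.38 to 5.66), or 8.11-fold. This was the 3rd largest positive difference on the array, yet it did not pass the test (limma adjusted p = 0.909, unadjusted 0.0301). All 3 knockouts lay above all 3 controls (exact permutation p = 0.1, two-sided, the smallest that 3 against 3 can give). Without knockout 1 the difference was 1.55 (limma adjusted p = 0.567), and without both arrays numbered 1, a choice made after the data were seen, it was 1.45. Pairs of the same number differed by 6.15, 1.19 and 1.71.

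The gene next to Krtap13, 2310034C09Rik, which shares the 102-base run, also had knockout 1 highest, then knockouts 3 and 2, then control 3. It read 3.93, 4.14 and 7.16 in controls 1 to 3 and 11.8, 7.77 and 8.83 in knockouts 1 to 3, so control 3 stood apart from the other controls. Its difference of 4.41 (1.65 to 7.16) was the largest positive one and its range of 7.91 the largest of all probe sets. It did not pass the test either (limma adjusted p = 0.909), and without knockout 1 it was 3.22. Its other flanking gene on the array, 2310057N15Rik, stayed between 2.99 and 3.78, and knockout 1 was its highest array. Krtap13-1, on the other side of Krtap13, read 4.53 to 4.88 and differed by -0.0039 (-0.25 to 0.24). Krtap14 differed by 0.0011 and Krtap15 by 0.10, both at levels under 3.8. Probe sequences were not used here. Whether the probe sets of Krtap13 and 2310034C09Rik read shared sequence was not tested, so their values may not be separate measurements. The 22 probe sets of the chromosome 16 members other than Krtap13 differed by a median of 0.017, and all lay below the array median in all 6 arrays.

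**Figure D3:**
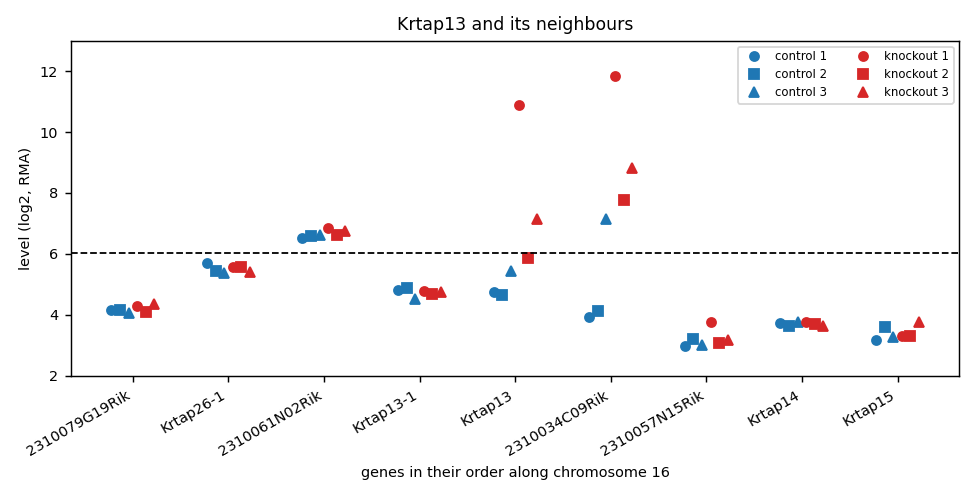
Level (log2, RMA) of Krtap13 and the genes around it with a single-gene probe set, in RefSeq gene order along chromosome 16 (not to scale); colours give genotype, symbols the replicate number, and the dashed line is the mean array median. Krtap13 and 2310034C09Rik reach 10.9 and 11.8 in knockout 1, while Krtap13-1, Krtap14 and Krtap15 stay below 5 in all 6 arrays.

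No member passed the adjusted threshold of 0.05 in limma, and none did among all probe sets (0% of 45037). A limma fit blocked on replicate number passed 3 probe sets (0.00666% of all) and again no member, whose smallest adjusted p was 0.34. At an unadjusted limma p under 0.05 there were 7 of 63 members, all higher in the knockout, against 5.21% of all probe sets, 2.58% higher and 2.63% lower. They were Krtap13, Krt32, Krt33b, Krt34, Krt27, Krt75 and 1 probe set of Krtap5-1. With the block there were 12, all higher, against 5.15% of all probe sets higher and 12% in either direction. The count was 1 without control 2 (Krt32), 3 without control 3, 3 without knockout 1, 8 without control 1, 6 without knockout 2 and 5 without knockout 3. Over all probe sets the higher calls numbered 982 without control 3, 978 without knockout 1 and 1163 without control 1. They numbered 1122 without knockout 2 and 1038 without knockout 3. Without control 2 the differences of the 7 members kept their sign and were somewhat smaller. They were 0.21 for Krt33b, 0.24 for Krt75, 0.21 for Krt27 and 0.33 for Krt32. The count of higher calls over all probe sets also went from 1163 to 628 without control 2. Groups did not overlap in 10 members, always with the knockout higher, against 6.55% of all probe sets, or 11.6% in either direction. Non-overlap with the knockout higher also went with level. At or below the median mean it was found in 6 of 51 members and 2015 of all 22519 probe sets. Above it the counts were 4 of 12 members and 933 of 22518.

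Krt32, a type I keratin of the shaft cuticle, had the smallest unadjusted p of the members. It read 5.91, 5.76 and 6.10 in the controls and 6.44, 6.34 and 6.23 in the knockouts. The difference was 0.41 (0.15 to 0.67, limma adjusted p = 0.909), and it lay between 0.33 and 0.50 with any 1 array left out. Krt34, also of the shaft, read 4.83, 4.77 and 4.82 in the controls and 5.29, 4.88 and 5.07 in the knockouts (0.27, 0.012 to 0.53). Krt33b differed by 0.23 (0.041 to 0.41).

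Krt27 of the inner root sheath read 4.80, 4.55 and 4.71 in the controls and 4.88, 4.96 and 5.05 in the knockouts (0.27, 0.051 to 0.49). Krt75 of the companion layer read 5.70, 5.65 and 5.65 in the controls and 6.02, 5.80 and 5.91 in the knockouts (0.25, 0.047 to 0.45). For both genes every knockout array lay above every control, by small steps. Of Krtap5-1, the dimmer probe set differed by 0.25 (0.056 to 0.45) and the brighter by 0.21 (-0.049 to 0.48), with overlap in the brighter. Each of these had an adjusted p of 0.909 in limma.

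By direction, 50 of 63 members had a higher mean in the knockout, against 50.6% of all probe sets, with a median difference of 0.061 against 0.0018. Direction also went with level over the whole array: 60.4% of probe sets at or below the median mean were higher in the knockout, against 40.8% of those above it. Of the 51 members in the lower part 39 were higher, and of the 12 in the upper part 11. A further quantile normalisation gave 43 members higher and 20 lower, and centring the arrays on their medians 54 and 9. Leaving out control 2 or knockout 3 gave 43 higher in each case.

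The hair keratins and the Krtap probe sets gave different values. Of the 20 hair keratins 18 were higher, with a median difference of 0.14. Under each scaling 18 or 19 were, and with 1 array left out 16 to 19. Their median deviation from each probe set's own mean was -0.027, -0.11 and -0.097 in controls 1 to 3 and 0.15, 0.014 and 0.098 in knockouts 1 to 3, so the groups did not overlap but control 1 and knockout 2 lay close together. All 7 type I hair keratins and all 4 type I sheath keratins had a higher mean in the knockout. Of the 5 type II hair keratins 4 did, and of the 3 type II sheath keratins 2. Krt81 (-0.028, -0.21 to 0.16) and Krt72 (-0.057, -0.26 to 0.14) were the keratins with a lower mean. Krtap probe sets were higher in 32 of 43, with a median of 0.033, in 24 after the further quantile normalisation and in 36 after centring. With 1 array left out 26 to 35 of them were higher. The members of the chromosome of Fzd6, all type II keratins, were higher in 7 of 9 with a median of 0.077, and those of chromosome 11 in 19 of 21 with 0.076. The difference between keratins and Krtap genes was not tested.

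**Figure D4:**
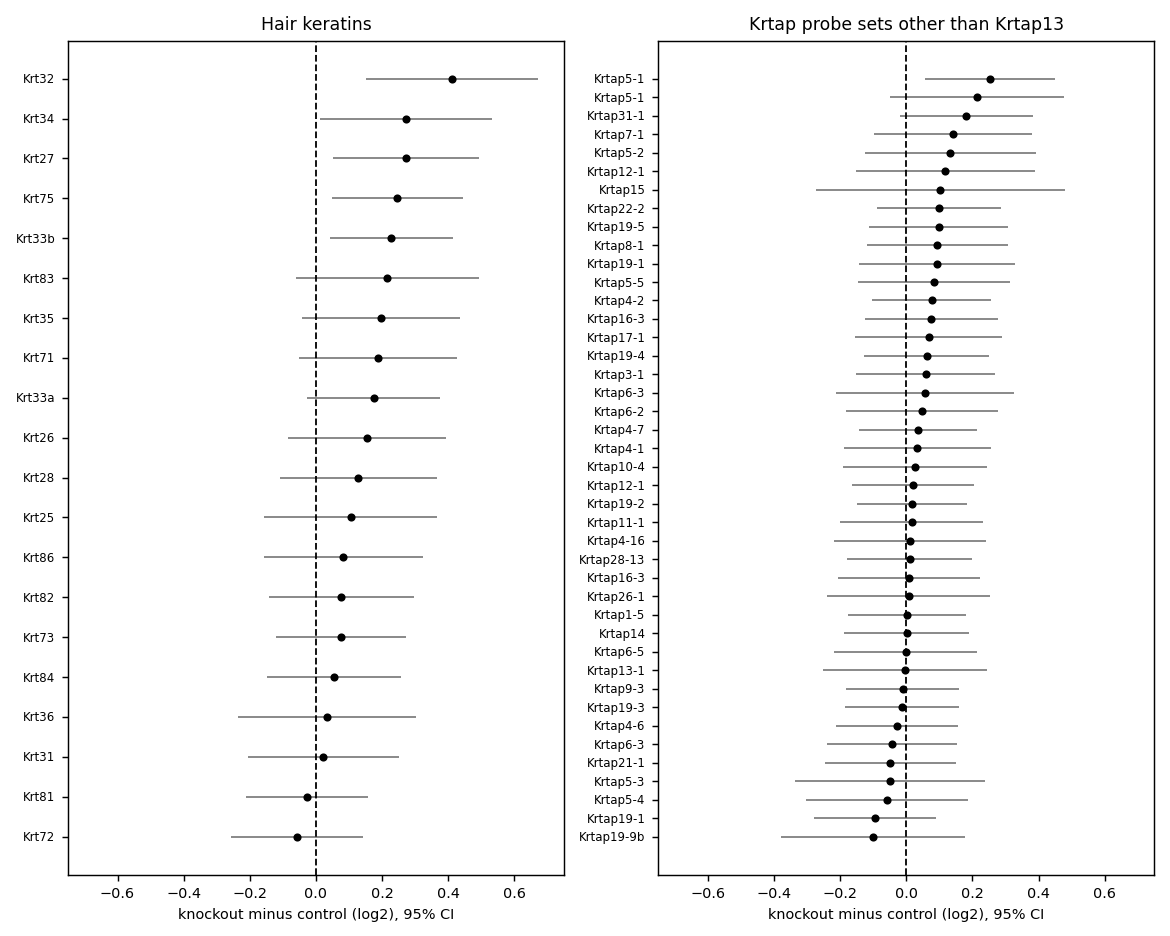
Difference of each member probe set, knockout minus control (log2), with the 95% confidence interval of the limma fit, sorted within hair keratins and within Krtap probe sets; Krtap13, at 3.02, is left out for scale. The intervals of Krt32, Krt34, Krt27, Krt75, Krt33b and 1 Krtap5-1 probe set lie above 0, and none lies wholly below 0.

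The remaining members gave small differences of both signs. Those with the smallest p among lower means were Krtap19-1 (-0.094 in its dimmer probe set, 0.094 in the brighter) and Krtap19-9b (-0.10, -0.38 to 0.18). Krtap31-1 (0.18, -0.020 to 0.38), at a level of 3.40 to 3.75, was the next on the positive side after the 7. Krt83 differed by 0.22 (-0.061 to 0.49), Krt36 by 0.034 (-0.24 to 0.30) and Krtap12-1 by 0.020 (-0.16 to 0.20). An interval that includes 0 does not show that the gene was alike in both genotypes.

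Of 26 listed regulators of shaft and sheath formation 25 were measured, each by its brightest probe set, and 18 lay above the median in all 6 arrays. None passed the adjusted limma threshold. A higher mean in the knockout was found for 18, against 50.6% of all probe sets, and a lower one for 7, with a median difference of 0.042. These counts include Vim, a filament protein and not a regulator, which lay above the median in all 6 arrays and differed by -0.18 (-0.45 to 0.087). Foxn1, which switches on hair keratin genes, read 5.41, 5.79 and 5.35 in the controls and 5.82, 6.12 and 5.69 in the knockouts, above the mark in knockout 2 alone. Its difference was 0.36 (-0.0019 to 0.72), and arrays of the same number differed by 0.40, 0.33 and 0.34. In the limma fit blocked on replicate number its unadjusted p was 0.0016 and its adjusted p 0.335. Hoxc13, another activator of hair keratins, differed by 0.22 (-0.062 to 0.50) and stayed below the mark. Gata3, needed for the inner root sheath, read 9.25 to 9.72 in the controls and 9.49 to 9.66 in the knockouts (0.12, -0.19 to 0.43). Lef1, the partner of beta-catenin in the hair matrix, differed by 0.0020 in its brightest probe set, Msx2 by 0.093 and Dlx3 by 0.042. Vdr, the vitamin D receptor, Msx1 and Hr had the smallest unadjusted p among them. Vdr differed by 0.49 (0.15 to 0.82), Msx1 by 0.22 (0.034 to 0.40) and Hr by 0.28 (0.0071 to 0.54).

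Of 25 other listed genes of shaft and sheath, 21 were measured, and none passed the adjusted limma threshold. The list was mixed and not only structural. Above the median in all 6 arrays lay 11, among them the enzymes Ctsl and Tgm1 and the receptor Lpar6. Below it in all 6 lay 6, Tchh and Tchhl1 among them. Of the 21 measured, 16 had a higher mean in the knockout, against 50.6% of all probe sets, with a median difference of 0.10. An unadjusted limma p under 0.05 was found for 4, all higher, against 2.58% of all probe sets higher. With the replicate block it was found for 7, all higher, against 5.15%. Prr9, a proline-rich protein named after its values were seen, read 7.18, 7.32 and 8.83 in the controls and 10.3, 8.42 and 9.23 in the knockouts (1.55, 0.23 to 2.87). As in Krtap13, knockout 1 was highest, knockout 3 next, and control 3 the highest control. Unlike it, control 3 lay above knockout 2. Gsdma read 5.32, 5.70 and 5.97 in the controls and 8.01, 6.47 and 6.40 in the knockouts (1.30, 0.33 to 2.27), but its dimmer probe set differed by 0.34 (-0.14 to 0.82). Calml3 differed by 0.79 (0.17 to 1.41) and the protease inhibitor Cst6 by 0.75 (0.16 to 1.33). Tchh differed by 0.10 (-0.37 to 0.58) and Tgm3, a transglutaminase of sheath and epidermis, by -0.0012. Tchhl1 differed by 0.066, Padi3 by 0.033 and S100a3 by 0.38 (-0.089 to 0.85). Which cells of the skin the transcripts of this list came from was not tested.

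In the deposited values, all 21 measured keratins of the epidermis and of simple epithelia had a higher mean in the knockout (median 0.32), 9 of them at an unadjusted limma p under 0.05 and none past the adjusted threshold. Over the array 2.58% of probe sets were higher at that p, and 40.8% of those above the median mean were higher at all. With the replicate block, against 5.15% of all probe sets higher, 15 of the 21 were higher at an unadjusted limma p under 0.05. Their mean level lay at 9.34 to 9.47 in the controls and 9.60 to 10.3 in the knockouts, highest in knockout 1, though Krt16 and Krt17 were highest in knockout 2 (6.76 and 9.22). Krt13 read 5.16, 5.78 and 6.42 in the controls and 8.57, 7.21 and 7.09 in the knockouts (1.83, 0.80 to 2.87). Krt6a differed by 1.09 and Krt23 by 0.98, and Krt5 (0.22), Krt14 (0.31), Krt17 (0.24), Krt1 (0.32) and Krt10 (0.23) by less. The 6 suprabasal markers averaged 12.3 to 12.5 in the controls and 12.7 to 13.1 in the knockouts, and the means of the 6 placode markers overlapped, at 7.24 to 7.53 and 7.28 to 7.63. Of the 6 placode markers 4 had a higher and 2 a lower mean in the knockout. Lhx2, a transcription factor of the hair germ outside the naming rule given below, had the largest difference. It read 5.30, 4.88 and 5.36 in the controls and 6.16, 5.76 and 5.68 in the knockouts (0.68, 0.29 to 1.08, limma adjusted p = 0.909). Edar differed by 0.12, Dkk4 by 0.080 and Shh by 0.00094, and Sostdc1 and Wnt10b by -0.18 each. Endothelial markers were lowest in knockout 1, at 7.24 against 7.75 to 8.37 elsewhere. Fibroblast markers (11.3 against 11.6 to 12.2) and dermal condensate markers (6.82 against 7.19 to 7.62) were also lowest there. The 4 melanocyte markers, all with a higher mean in the knockout, averaged 8.05 to 8.36 in the controls and 8.18 to 8.91 in the knockouts, highest in knockout 1. All 4 mast cell markers had a higher mean in the knockout, each at an unadjusted limma p under 0.05, and they averaged 8.81 to 9.45 in the controls and 9.70 to 9.90 in the knockouts. The 4 macrophage markers all had a lower mean in the knockout, averaging 8.03 to 8.39 in the controls and 7.95 to 8.30 in the knockouts. Muscle markers averaged 10.8 to 11.6 in the controls and 10.6 to 11.5 in the knockouts. The part of these epidermal and other cell type shifts in the hair keratin, Krtap13 and other shaft and sheath values was not tested.

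**Figure D5:**
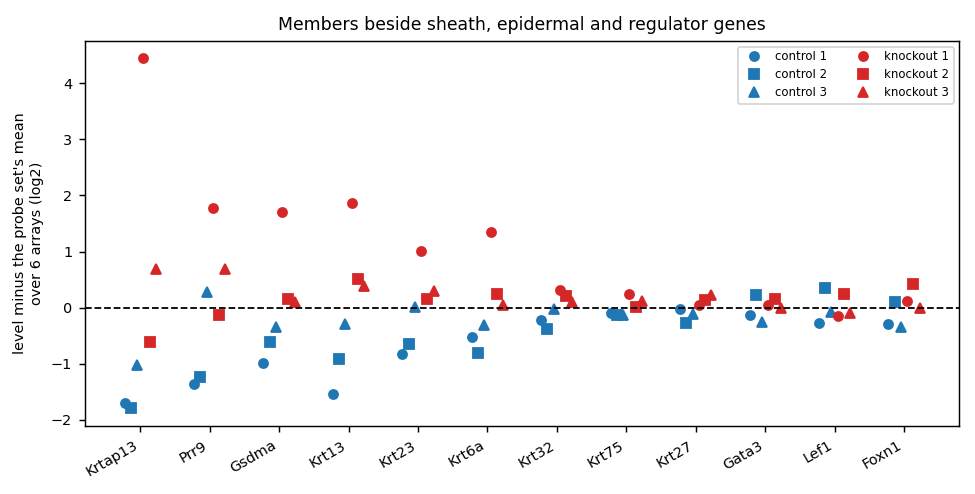
Level of Krtap13, Krt32, Krt75 and Krt27 beside Prr9, Gsdma, 3 other keratins and 3 hair regulators, each as the difference from its own mean over the 6 arrays (log2); colours give genotype and symbols the replicate number. Knockout 1 is the highest array for Krtap13, Prr9, Gsdma, Krt13, Krt23 and Krt6a, and also for Krt32 and Krt75. Krt32, Krt75, Krt27, Gata3, Lef1 and Foxn1 each spread over less than 1.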

How the data were processed

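The deposited values are expression summaries on the log2 scale that the authors made with RMA (background correction, quantile normalisation, probe summary), per the submitters' processing notes, which give no version. No label or header states the log base, which was read from the values (2.39 to 14.8). RMA forces nearly equal distributions and pulls differences of dim probe sets toward 0. Names came from the platform annotation, all 63 members matched RefSeq by Entrez identifier, and 64 control rows were left out. Of the probe sets, 932 carried several symbols and 9160 none.

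All 45037 probe sets entered a two-sided limma fit (version 3.58.1, R 4.3.3) without covariates or filter (prior degrees of freedom 3.43, residual 4), Benjamini-Hochberg adjusted over all, and tested on simulated data. Gene lists used the probe set with the highest mean. Deviations of same-numbered arrays from their group means correlated at 0.568, 0.359 and 0.124. Correlations of differently numbered arrays were not computed, so these values cannot decide whether the numbers pair the arrays. The main fit had no block, and a blocked fit was an alternative. Others were a variance trend, array weights, centring, further quantile normalisation, the mean of 3 Y-linked genes as covariate, a filter on level, other marks and each array left out. Named genes were the members above the mark in all 6 arrays, those nearest it, up to 8 each way by p, the brightest of each role or family, members with a range of 1 or more, the 3 smallest p of each other list, 13 set genes and Fzd6. The members and lists were chosen with earlier results of these data known. Upstream windows are from RefSeq (GRCm38.p6). Figures used matplotlib 3.10.9 in Python 3.11.15.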

Additional observations from a re-analysis of the deposited data

Results flagged for a closer look

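A probe set outside the comparisons, because it carries the symbols Krtap3-2 and Krtap3-3 together, had a signal above that of all control arrays. It read 4.18, 4.74 and 4.82 in controls 1 to 3 and 6.09, 5.32 and 5.56 in knockouts 1 to 3, so the knockout mean was 1.08 higher (0.53 to 1.62 at 95% confidence, adjusted p = 0.909 in limma). It passed the array median in knockout 1 alone. A further probe set with the same pair of symbols differed by -0.018 (-0.25 to 0.21) at levels of 2.74 to 3.01, and in the other 4 probe sets that join a Krtap symbol with others the groups overlapped.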

How the results depend on the processing

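The count of members above the mark in all 6 arrays was 9. It was 16 with the mark at the 40th percentile, 2 at the 60th, 0 at the 75th and 3 at the median of single-gene probe sets, and 9 to 10 with 1 array left out. No member passed the adjusted threshold under any limma alternative run, leaving out single arrays included (0 to 0), and 7 did at an unadjusted p under 0.05. That unadjusted count was 12 with the replicate block, 4 with the filter on level, which drops most members, and 1 to 8 with 1 array left out. Over all probe sets, 628 to 1163 were higher at that p with 1 array left out. The median difference of 0.061 was 0.136 under the level filter and 0.0468 to 0.0773 with 1 array left out. Higher means in the knockout numbered 50, 11 under the level filter and 43 to 52 with 1 array left out. The replicate block changed no call at the adjusted threshold among the members and lists. At an unadjusted limma p under 0.05 it moved all probe sets from 5.21% to 12% in either direction, and from 2.58% to 5.15% higher. Epidermal and simple keratins went from 9 to 15, other shaft and sheath genes from 4 to 7 and basal markers from 0 to 4. Melanocyte markers went from 0 to 3 and sheath and shaft markers from 0 to 2. The regulator list went from 4 to 6 higher and from 0 to 1 lower, which was Vim. Fibroblast and endothelial markers each went from 0 to 1 lower. For 64 named probe sets none of 832 values under the alternatives crossed the adjusted threshold. With 3 arrays per group and dim probe sets, the 95% intervals of most members include 0.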
